A study of Mus musculus with 12 samples.

Results

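The microglia and complement C1q genes are 29 gene symbols, mostly markers of microglia, the resident macrophages of the brain, and they were taken from the count table by symbol. They matched 30 of the 52550 features, because Itgam is listed under 2 Ensembl identifiers. The libraries are ribosome-bound RNA from somatosensory cortex of mice at postnatal day 40, 3 from Fmr1 knockout (Fmr1-/y) and 3 from wild-type (Fmr1+/y) mice on a mixed FVB and C57 background. All mice carried the Aldh1l1-TRAP transgene, which places an eGFP-tagged ribosomal protein under the promoter of the astrocyte gene Aldh1l1. The pull-down targets astrocytes, whereas most genes described here are known as markers of microglia. Whether astrocytes also gave reads of these genes was not tested. Fmr1 encodes FMRP, the RNA-binding protein missing in fragile X syndrome, and the series asks how astroglia change without it. The labels give neither the number of animals behind a library nor whether each library came from its own animal, and the p-values therefore describe only how far these libraries spread, which may be technical. No library of the unbound or input RNA was analysed here, so depletion of microglial RNA by the pull-down was not measured.

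Microglia survive through the receptor CSF1R, sense nucleotides through purinergic receptors and the neuronal chemokine fractalkine through CX3CR1, and engulf debris and synapses through Fc, TREM2 and complement receptors. C1q, the recognition molecule that starts the classical complement pathway, is built from the A, B and C chains encoded by C1qa, C1qb and C1qc, and in brain it is made mainly by microglia. C1q is known for tagging synapses for removal by microglia that carry complement receptor 3, the integrin of Itgam and Itgb2.

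The 6 libraries held between 10953958 and 22397202 counts after the 2 deposited entries of each library were summed. Knockout libraries 14 and 16 carried 35.6% and 45.1% of their counts on 3 features where ribosomal RNA reads collect, against 0.892% to 7.45% in the other 4 libraries. Levels are given as CPM, counts per 1000000 of the TMM-scaled library (trimmed mean of M-values), and 1 CPM stood for 12.3 and 7.10 counts in knockout libraries 14 and 16 and for 23.5 to 26.1 counts in the others. Values of a few CPM are therefore least precise in knockout library 16. Fmr1 measured 4.32, 4.22 and 1.32 CPM in the knockout (libraries 14, 16 and 18) and 31.6, 38.4 and 37.0 CPM in the wild type (libraries 13, 15 and 17), low in each library labelled knockout. All 12 astrocyte markers were measured, with summed levels of 26210 to 30305 CPM in the knockout and 26501 to 31879 CPM in the wild type.

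No microglia or C1q gene passed the test of genotype after adjustment over all genes. Of the 30 features, 26 passed the filter on low counts and 0 of these passed an adjusted p of 0.05 in edgeR's quasi-likelihood test, where 0 of all 14990 tested genes passed (0%). Fmr1 itself had an adjusted p of 0.2998 in that test. At an unadjusted p under 0.05 there was 1 member, C1qc, which was lower in the knockout; over all tested genes 1.03% were lower at that level and 1.77% (265 genes) differed in either direction. DESeq2 and edgeR's exact test also called 0 members after adjustment, with 8 (0.0534%) and 9 (0.06%) calls over all genes. At an unadjusted p under 0.05 they had 1 and 2 of the 26 members, against 274 and 248 of all 14990 genes, either direction. The 26 tested members had standard errors of the log2 fold change from 0.18 to 0.78 with a median of 0.40, and 25 of the 26 intervals at 95% included 0. In bulk RNA from a pull-down, the number of microglia, the RNA per microglial cell and the depletion of microglial RNA by the pull-down cannot be told apart. The cells the reads came from were not tested.

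All 3 C1q chains had negative log2 fold changes (knockout minus wild type), with a median of -0.51, the lowest of the role groups described here, and 1 of them had an unadjusted p under 0.05. C1qc, the C chain, measured 2.20, 0.704 and 2.36 CPM in the knockout and 4.85, 2.84 and 5.78 CPM in the wild type; values are given in the order 14, 16, 18 for the knockout and 13, 15, 17 for the wild type here and below. Each knockout library lay below each wild-type library, with library 16 the lowest at 5 counts and library 15 the closest wild-type value. Group means were 1.76 ± 0.914 and 4.49 ± 1.50 CPM (SD over 3 libraries), a fitted 2.44-fold higher level in the wild type (log2 fold change -1.28, SE 0.46, 95% interval -2.33 to -0.24; edgeR quasi-likelihood unadjusted p = 0.0220, adjusted p = 1.000). The exact permutation test of C1qc over the 6 libraries gave p = 0.1, two-sided, the smallest that 3 against 3 can give.

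C1qb, the B chain, measured 2.04, 2.53 and 2.28 CPM in the knockout and 3.66, 2.21 and 3.83 CPM in the wild type. Wild-type library 15 stood inside the knockout range while libraries 13 and 17 stood above it (log2 fold change -0.51, SE 0.33, 95% interval -1.26 to 0.25). C1qa, the A chain, measured 1.55, 2.11 and 1.78 CPM in the knockout and 1.70, 2.21 and 2.18 CPM in the wild type. Its groups overlapped (log2 fold change -0.18, SE 0.34, 95% interval -0.95 to 0.60).

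**Figure D1:**
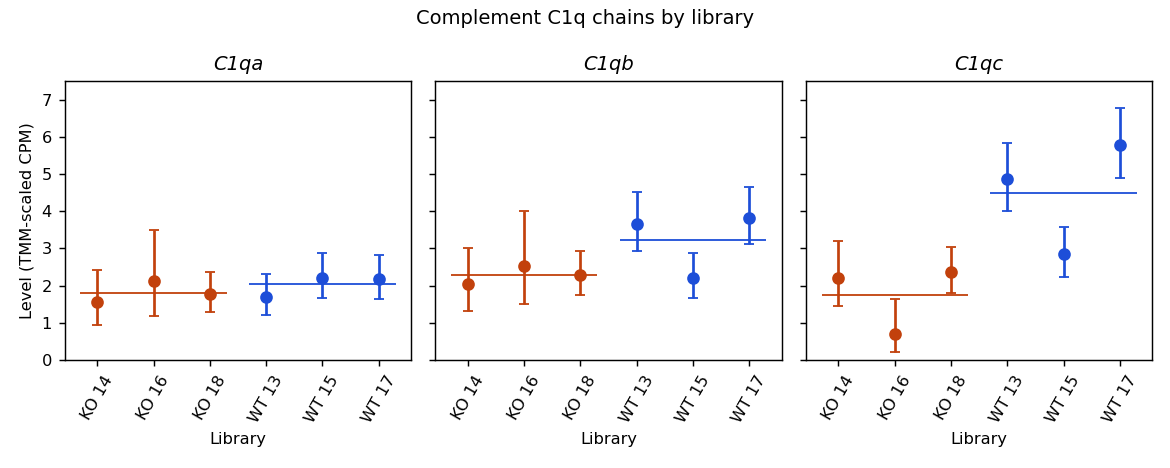
Level of each C1q chain (TMM-scaled CPM) in each library, with exact 95% Poisson intervals that cover counting error only; horizontal lines are group means of 3 libraries, knockout in orange and wild type in blue. C1qa overlaps between genotypes, C1qb is high only in wild-type libraries 13 and 17, and C1qc runs from 0.704 to 2.36 CPM in the knockout and from 2.84 to 5.78 CPM in the wild type.

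The 3 chains summed to 5.79, 5.35 and 6.42 CPM in the knockout and 10.2, 7.27 and 11.8 CPM in the wild type. These sums do not overlap, at 5.85 ± 0.538 against 9.76 ± 2.29 CPM (SD over 3 libraries), and since the chains were added after their values were known the sum is a description. The mix of the chains also varied between libraries. C1qc held 38.0% (95% exact binomial interval 26.8 to 50.3%) of the 71 C1q counts in knockout library 14, 13.2% (4.41 to 28.1%) of 38 in library 16 and 36.7% (29.4 to 44.6%) of 166 in library 18. It held 47.5% (41.0 to 54.0%) of 240 counts in wild-type library 13, 39.1% (32.0 to 46.6%) of 184 in library 15 and 49.0% (43.3 to 54.8%) of 308 in library 17. The intervals cover counting error only, and that of library 16 lies below those of library 18 and of all 3 wild-type libraries.

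The C1qc difference was uneven over the libraries. The titles carry strings that start with 5 or 6, which the labels do not explain. Within the libraries with a 5, knockout libraries 14 and 16 stood on average at -1.89 log2 units relative to wild-type library 13. Within those with a 6 the same difference, library 18 relative to the mean of libraries 15 and 17, was -0.78. Without knockout libraries 14 and 16, where the ribosomal RNA counts are high, the fold change of C1qc was -0.90 (edgeR quasi-likelihood unadjusted p = 0.143), and with that share as a term of the fit it was -0.78 (edgeR quasi-likelihood unadjusted p = 0.228). Without wild-type library 13 or 17 its unadjusted p was 0.0542 and 0.0642 in the same test, and without knockout library 16 the fold change was -0.97. The part of the ribosomal RNA share in the result was not tested beyond these fits.

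The authors' deposited table lists C1qc at a log2 fold change of -1.25 with p = 0.000163 and an adjusted p of 0.0346. It was the 1 member among 25 listed with an adjusted p under 0.05 in the authors' deposited table, where 0.573% of 14843 features had one. No source used here tells how the authors' test treated the 2 entries of a library, whereas they count as 1 sample in the other values of this text.

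C1qb, C1qc and C1qa lie side by side on chromosome 4 (GRCm38.p6, the RefSeq version of mm10), at 136880126 to 136886200, 136889801 to 136892936 and 136895916 to 136898844. The gaps between them are 3600 and 2979 bases, and no other gene of the RefSeq table starts between them. The promoter windows of C1qc and C1qb are shown because these neighbouring genes had the lowest fold changes of the chains. Each window runs from 250 bases before to 50 bases after the RefSeq start on the minus strand, read 5′ to 3′ along the gene, at chr4:136892865-136893164 for C1qc and chr4:136886151-136886450 for C1qb. Capitals mark GAGGAA or its reverse complement, letters found in binding sites of PU.1, the transcription factor of the macrophage lineage.
C1qc: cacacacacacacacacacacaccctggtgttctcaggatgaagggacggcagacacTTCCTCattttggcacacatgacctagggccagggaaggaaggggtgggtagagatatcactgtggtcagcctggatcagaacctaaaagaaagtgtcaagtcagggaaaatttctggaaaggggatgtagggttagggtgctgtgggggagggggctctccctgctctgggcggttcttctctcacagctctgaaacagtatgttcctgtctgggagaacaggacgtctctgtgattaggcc
C1qb: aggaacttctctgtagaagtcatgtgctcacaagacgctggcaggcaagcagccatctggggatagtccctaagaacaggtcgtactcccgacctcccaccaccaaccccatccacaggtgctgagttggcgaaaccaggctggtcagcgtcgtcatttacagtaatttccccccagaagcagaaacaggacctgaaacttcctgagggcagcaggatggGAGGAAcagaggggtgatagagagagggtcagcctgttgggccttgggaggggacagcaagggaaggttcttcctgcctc
The match begins 193 bases before the start in C1qc, on the opposite strand, and 30 bases before the start in C1qb, on the gene's strand. The start used for C1qc lies slightly inside the RefSeq span of the gene, and that of C1qb at the outer end of its span. C1qa had no entry in the promoter table.

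RefSeq promoter windows were found for 21 of the 29 symbols, 26 windows in all. GAGGAA occurred on either strand in 15 of the 26 member windows (57.7%) and in 28.3% of all 32851 windows. The longer AGGAAGT, which shares the letters AGGAA with it, occurred in 9 member windows (34.6%) against 9.35% of all, in C1qb, C1qc, Cd53, Ctss, Fcrls, P2ry12, Ptprc and Sall1. P2ry12 and Sall1 had it without GAGGAA. GAGGAAGT occurred in 3 (11.5%) against 3.20%, GGAAGT in 12 (46.2%) against 23.8%, GGGGAAGT in 0 against 1.48% and TATAAA in 5 (19.2%) against 13.6%. These 6 runs of letters were all that were searched; a match is a description of the window, and several windows belong to 1 gene.

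Among the surface receptors and identity genes of microglia, 10 of 11 had a negative log2 fold change, with a median of -0.26 and values from -1.06 to 0.34, and 0 had an unadjusted p under 0.05. Several of these signs depend on 1 library. Fcrls, an Fc receptor-like gene of mouse microglia, had the lowest value of the group. The levels were 1.31, 1.27 and 1.39 CPM in the knockout and 3.02, 1.11 and 4.17 CPM in the wild type. The knockout libraries were tight (1.32 ± 0.0644 CPM) and wild-type library 15 lay below all of them, so that the groups overlap (2.77 ± 1.55 CPM in the wild type, SD over 3 libraries; log2 fold change -1.06, SE 0.50, edgeR quasi-likelihood unadjusted p = 0.0682). Without wild-type library 15 Fcrls stood at -1.43 (edgeR quasi-likelihood unadjusted p = 0.00682) and without library 17 at -0.63 (edgeR quasi-likelihood unadjusted p = 0.267). Fcrls and C1qb shared the order of wild-type libraries with C1qc, highest in 17, then 13, then 15.

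Tmem119, a membrane protein used to tell microglia from other macrophages, measured 3.02, 2.53 and 2.55 CPM in the knockout. Its wild-type values were 3.79, 3.44 and 3.25 CPM. The groups did not overlap, although the gap between library 14 and library 17 was small (2.70 ± 0.274 against 3.49 ± 0.273 CPM, SD, n = 3 each; log2 fold change -0.37, SE 0.27, 95% interval -0.99 to 0.25). P2ry12, the ADP receptor that guides microglial processes to injury, measured 7.26, 5.07 and 5.61 CPM in the knockout and 7.62, 7.98 and 7.04 CPM in the wild type (log2 fold change -0.33, SE 0.22). Library 14 was the 1 knockout library inside the wild-type range. Csf1r, the receptor microglia need to survive, measured 10.1, 6.20 and 8.09 CPM in the knockout and 9.84, 9.64 and 9.83 CPM in the wild type (log2 fold change -0.26, SE 0.22). Its wild-type libraries were nearly equal, and knockout library 14 stood above all of them.

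Cx3cr1, the fractalkine receptor, showed no common direction. It measured 6.53, 4.79 and 6.15 CPM in the knockout and 4.34, 9.12 and 4.86 CPM in the wild type. Library 15, low for C1qc, C1qb and Fcrls among the wild-type libraries, was the highest of all 6 for Cx3cr1 (log2 fold change -0.06, SE 0.33, and 0.36 without library 15). P2ry13, an ADP receptor encoded near P2ry12 on chromosome 3, measured 3.18, 1.69 and 2.48 CPM in the knockout and 2.34, 2.37 and 1.15 CPM in the wild type. It was the 1 gene of this group with a positive fold change (0.34, SE 0.41).

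Gpr34, a lysophosphatidylserine receptor, measured 1.88, 1.83 and 1.74 CPM in the knockout and 3.11, 2.41 and 1.49 CPM in the wild type (log2 fold change -0.36, SE 0.38). Siglech, a sialic acid-binding lectin, measured 1.22, 0.422 and 0.812 CPM in the knockout and 0.724, 1.66 and 1.53 CPM in the wild type (log2 fold change -0.63, SE 0.53), where knockout library 16 held 3 counts. Both sets of libraries overlapped. Selplg, the selectin ligand PSGL-1, and Olfml3, a secreted olfactomedin-like protein, were nearly level between genotypes, at 2.22 ± 1.19 against 2.38 ± 0.424 CPM and at 2.37 ± 0.468 against 2.501 ± 1.08 CPM (SD over 3 libraries). Their log2 fold changes of -0.05 and -0.06 turned to 0.23 without knockout library 16 for Selplg and to 0.34 without wild-type library 17 for Olfml3.

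Sall1, a transcription factor that maintains microglial identity, measured 33.8, 29.99 and 21.3 CPM in the knockout and 38.8, 34.8 and 19.6 CPM in the wild type. Knockout library 18 and wild-type library 17 were low in both genotypes alike, and the difference between genotypes was small beside this spread (log2 fold change -0.14, SE 0.28, and 0.06 without wild-type library 13). With Lgmn, Sall1 held most of the summed level of the members.

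**Figure D2:**
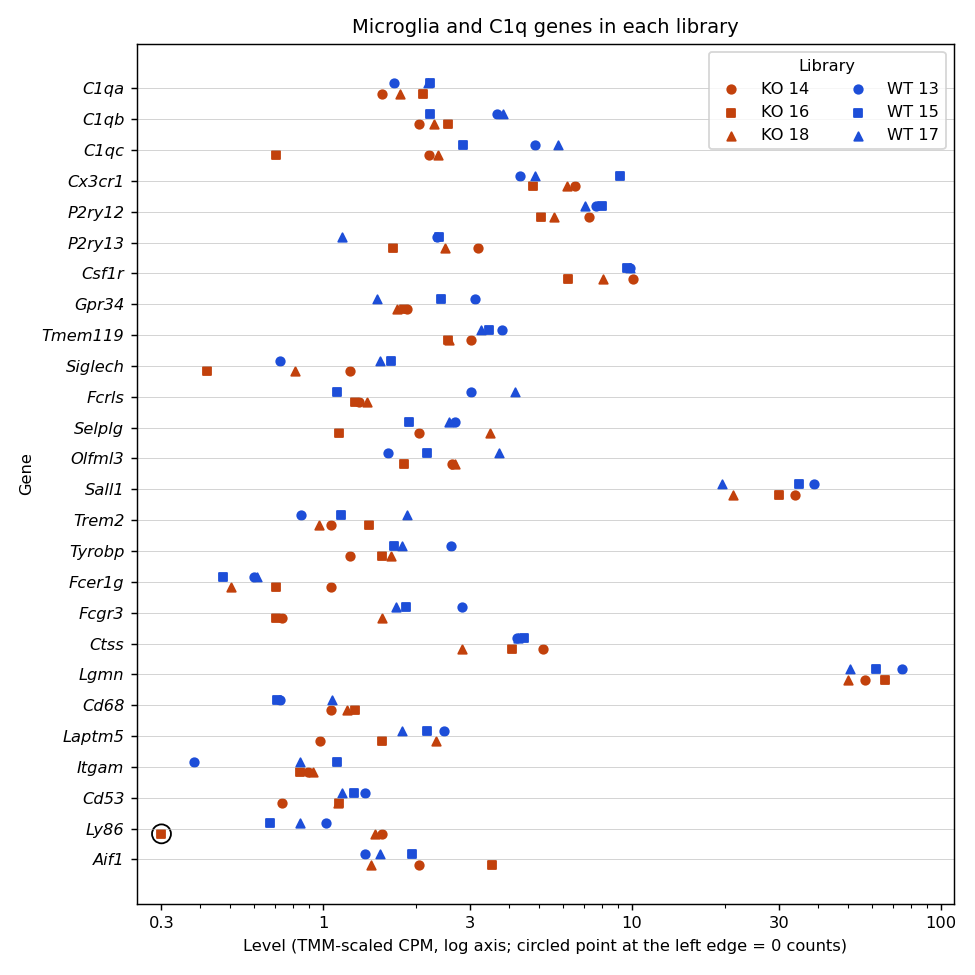
Level of the 26 tested genes (TMM-scaled CPM, log axis) in knockout (orange) and wild-type (blue) libraries, 1 point per library, ordered by role. Most genes overlap between genotypes; C1qc, Tmem119, Tyrobp, Fcgr3 and Cd53 do not, and Ly86 had 0 counts in knockout library 16.

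In the Fc receptor and TREM2 group, 3 of 4 genes had negative fold changes and Fcgr3 and Tyrobp did not overlap between genotypes. Fcgr3, a low-affinity receptor for IgG, measured 0.734, 0.704 and 1.55 CPM in the knockout and 2.81, 1.86 and 1.72 CPM in the wild type. Library 18 was the highest of the knockout and came close to wild-type library 17. Group means came to 0.995 ± 0.479 and 2.13 ± 0.593 CPM (SD over 3 libraries), a fitted 2.03-fold higher level in the wild type (log2 fold change -1.02, SE 0.45, 95% interval -2.05 to 0.02; edgeR quasi-likelihood unadjusted p = 0.0527, adjusted p = 1.000). Without knockout libraries 14 and 16 the log2 fold change of Fcgr3 was -0.43, and without knockout library 18 it was -1.55 (edgeR quasi-likelihood unadjusted p = 0.465 and 0.0170).

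The promoter windows of Fcgr3 and Fcrls are shown because, after C1qc, they had the lowest fold changes of the tested members. They lie on the minus strand at chr1:171059354-171059653 for Fcgr3, the first of its 2 overlapping windows, and at chr3:87263475-87263774 for Fcrls (GRCm38.p6, RefSeq), with GAGGAA or its reverse complement in capitals.
Fcgr3: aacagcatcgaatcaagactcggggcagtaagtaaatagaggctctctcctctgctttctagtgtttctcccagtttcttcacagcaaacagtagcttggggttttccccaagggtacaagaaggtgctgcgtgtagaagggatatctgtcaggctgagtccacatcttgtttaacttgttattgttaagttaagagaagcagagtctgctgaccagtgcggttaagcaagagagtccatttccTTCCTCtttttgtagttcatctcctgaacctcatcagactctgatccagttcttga
Fcrls: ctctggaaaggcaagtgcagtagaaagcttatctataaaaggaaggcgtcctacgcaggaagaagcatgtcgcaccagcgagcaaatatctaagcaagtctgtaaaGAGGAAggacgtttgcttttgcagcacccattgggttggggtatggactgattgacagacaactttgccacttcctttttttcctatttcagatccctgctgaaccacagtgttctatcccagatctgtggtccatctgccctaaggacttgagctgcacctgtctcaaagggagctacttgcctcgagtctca
The match begins 6 bases before the start in Fcgr3, on the opposite strand, and 144 bases before it in Fcrls, on the gene's strand. The Fcgr3 window lies within the RefSeq span of the gene (chr1:171051169-171065915), so the start used for Fcgr3 is not the outermost one. The start used for Fcrls also lies inside the RefSeq span of its gene (chr3:87250736-87263765).

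Tyrobp encodes DAP12, the signalling adaptor of TREM2. It measured 1.22, 1.55 and 1.66 CPM in the knockout and 2.60, 1.70 and 1.80 CPM in the wild type, with knockout library 18 just under wild-type library 15 (log2 fold change -0.45, SE 0.37). Trem2 itself, a lipid receptor that drives phagocytosis, measured 1.06, 1.41 and 0.967 CPM in the knockout and 0.852, 1.15 and 1.87 CPM in the wild type. The libraries of Trem2 interleaved (log2 fold change -0.20, SE 0.45, and 0.16 without wild-type library 17). Fcer1g, the common gamma chain through which Fc receptors signal, measured 1.06, 0.704 and 0.503 CPM in the knockout and 0.596, 0.474 and 0.612 CPM in the wild type (log2 fold change 0.40, SE 0.50). Fcgr3 and its signalling chain thus had fold changes of opposite sign, and the difference between them was not tested.

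Of the 4 lysosomal genes, 3 had negative and 1 a positive fold change, from -0.38 to 0.48, and all 4 intervals included 0. Lgmn, an asparaginyl endopeptidase, measured 56.6, 65.8 and 50.1 CPM in the knockout and 74.6, 61.5 and 50.9 CPM in the wild type, and with 7095 counts it was the most precise of the members (log2 fold change -0.12, SE 0.18, and 0.03 without wild-type library 13). Ctss, the protease cathepsin S, measured 5.14, 4.08 and 2.82 CPM in the knockout and 4.26, 4.46 and 4.29 CPM in the wild type, so that the knockout libraries lay on both sides of the wild type (log2 fold change -0.12, SE 0.29, and 0.10 without knockout library 18). Cd68, a lysosomal membrane protein of phagocytes, measured 1.06, 1.27 and 1.20 CPM in the knockout and 0.724, 0.711 and 1.07 CPM in the wild type (log2 fold change 0.48, SE 0.41, 95% interval -0.47 to 1.43). Here knockout library 14 fell just short of wild-type library 17, and the others stood above the wild type. Laptm5, a lysosomal transmembrane protein of blood lineage cells, measured 0.979, 1.55 and 2.32 CPM in the knockout and 2.47, 2.17 and 1.80 CPM in the wild type (log2 fold change -0.38, SE 0.41, 95% interval -1.32 to 0.56).

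Among the leukocyte surface and myeloid genes, 4 of 8 features had too few counts to test, and the other 4 split into 1 negative and 3 positive fold changes. Aif1, which encodes the microglial marker IBA1, measured 2.04, 3.52 and 1.43 CPM in the knockout and 1.36, 1.94 and 1.53 CPM in the wild type, with knockout libraries 14 and 16 above and library 18 within the wild-type range (log2 fold change 0.49, SE 0.43, and -0.14 without knockout libraries 14 and 16). Cd53, a tetraspanin of leukocytes, measured 0.734, 1.13 and 1.12 CPM in the knockout and 1.36, 1.26 and 1.15 CPM in the wild type, which do not overlap by a narrow margin (log2 fold change -0.34, SE 0.40). Ly86, the partner of a receptor related to the endotoxin receptor, had 19, 0 and 38 counts in the knockout and 24, 17 and 22 in the wild type. The 0 of library 16 allows up to 0.422 CPM (3 counts), below the 0.671 CPM of the lowest wild-type library (log2 fold change 0.36, SE 0.78).

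Itgam, the alpha chain of complement receptor 3, measured 0.897, 0.845 and 0.929 CPM in the knockout and 0.383, 1.11 and 0.842 CPM in the wild type under its main identifier (log2 fold change 0.20, SE 0.51, and -0.12 without wild-type library 13). Its other identifier held 2 counts in all, both in wild-type library 17. Itgb2, the beta chain, held 10 counts over the knockout and 20 over the wild type and did not pass the filter. Ptprc, the pan-leukocyte phosphatase CD45, held 3 counts over the knockout and 26 over the wild type, of which 16 were in library 17, and Cd52, a lymphocyte surface glycoprotein, held 6 and 13. The wild-type mean of Ptprc and Cd52 was 0.345 and 0.175 CPM. All 4 features below the filter had a higher mean in the wild type, and their counts were too low for a comparison at this depth.

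Read together, the tested members leaned lower in the knockout by small amounts. Of the 26, 20 had a negative log2 fold change against 50.4% of all tested genes, and their median was -0.19 against -0.0019 over all genes. With no filter on low counts 24 of the 30 features were negative with a median of -0.30. In 5 of the 26 each knockout library lay below each wild-type library, against 3.25% of all tested genes, and in 0 each lay above, against 2.95%. Since 24 members are of low level, the same values were taken over the 5641 genes with a mean under 10 CPM. There 52.2% were negative, 5.14% had all knockout libraries lower and 3.08% had a log2 fold change below -1, against 18, 5 and 3 of the 24 members. At an unadjusted p under 0.05, 1.77% of these genes were lower, against 1 of the 24. Over all tested genes 1.21% had a log2 fold change below -1, which 3 of the 26 members (C1qc, Fcrls and Fcgr3) had. The median was -0.02 for the genes under 10 CPM and -0.23 for the 24 members. Microglial genes share their cells and so are not independent of each other, and these counts carry no test.

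**Figure D3:**
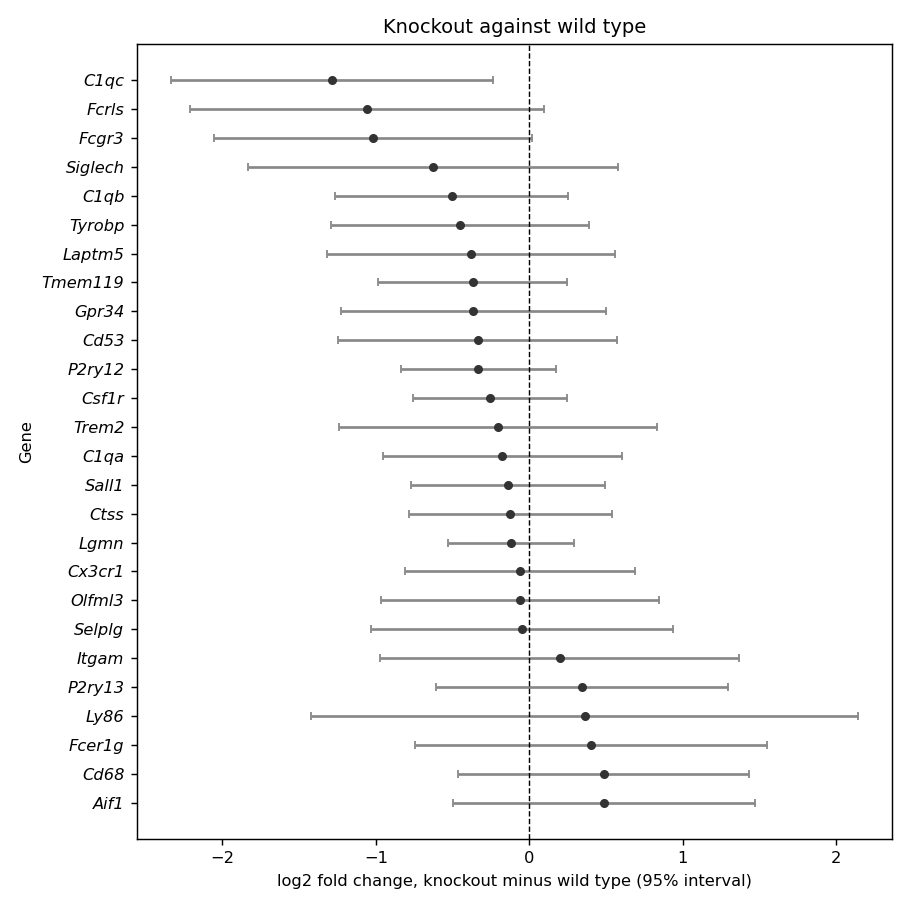
Log2 fold change of each tested gene (knockout minus wild type, edgeR quasi-likelihood fit on 3 against 3 libraries) with its 95% interval. The interval of C1qc, from -2.33 to -0.24, is the 1 of 26 that does not include 0.

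**Figure D4:**
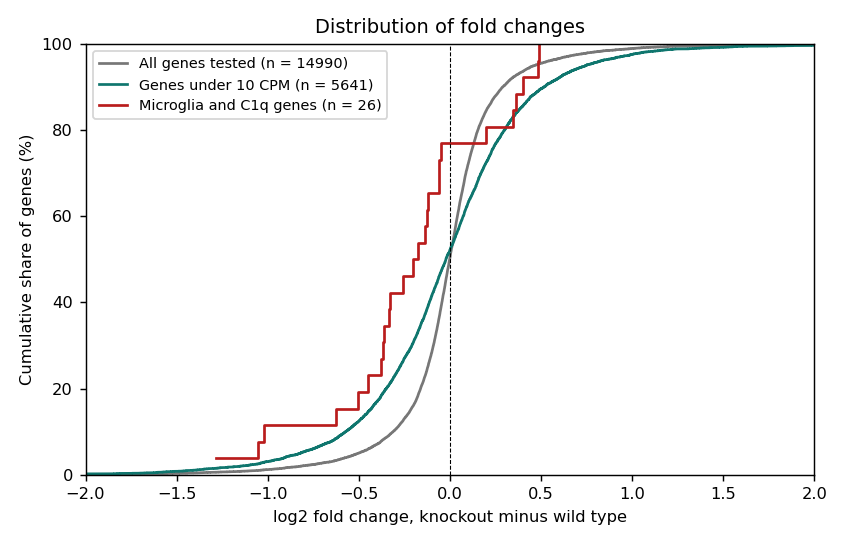
Cumulative share of genes by log2 fold change (knockout minus wild type) for all 14990 tested genes, the 5641 genes under 10 CPM and the 26 tested microglia and C1q genes; the horizontal axis is limited to 2 log2 units on each side. At a fold change of 0 the curve of the members stands at 76.9%, against 52.2% for genes under 10 CPM and 50.4% for all genes, with medians of -0.19, -0.02 and -0.0019 for members, genes under 10 CPM and all genes.

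All 30 features summed to 152, 145 and 129 CPM in the knockout and 182, 163 and 140 CPM in the wild type, which overlap. Without Sall1 and Lgmn, left out after their values were seen, the sums were 61.6, 49.1 and 58.0 CPM against 68.7, 67.0 and 70.0 CPM, which do not overlap. The spread within a genotype exceeded counting error for most members. In 22 of the 26 the chi-square per degree of freedom within groups was above 1, the value that counting error alone gives on average, with a median of 3.21. Library 16 was the lowest library for 8 members and wild-type library 13 the highest for 8.

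Neuron, oligodendrocyte and astrocyte markers ranged more widely between libraries than the members did. Relative to the wild-type mean, the member median was -0.09, -0.27 and -0.27 log2 units in the knockout and 0.12, -0.01 and -0.0036 in the wild type. The neuron marker median ran from -0.24 to 0.52 in the knockout and from -0.58 to 0.43 in the wild type. The oligodendrocyte marker median ran from -0.65 to 0.69 and from -0.52 to 0.48, and the astrocyte marker median from -0.22 to 0.24 and from -0.36 to 0.26. Their part in the member values was not tested.

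**Figure D5:**
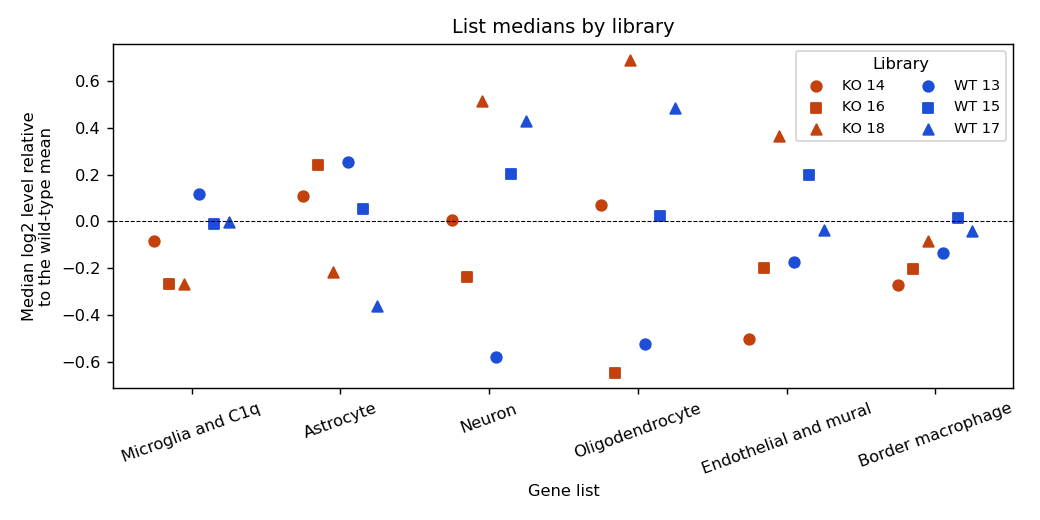
Median log2 level of the tested genes of each marker list relative to the wild-type mean, 1 point per library, knockout in orange and wild type in blue. The microglia and C1q median stays between -0.27 and 0.12, while neuron and oligodendrocyte medians range from -0.65 to 0.69 without separating the genotypes.

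Border macrophages, which sit along vessels and in the meninges, share C1q, Csf1r and Fc receptors with microglia. Of 11 border macrophage markers 6 were tested, 4 with negative and 2 with positive fold changes and a median of -0.14, and 0 at an unadjusted p under 0.05. Their summed level was 5.77 to 7.58 CPM in the knockout and 7.54 to 8.07 CPM in the wild type. Cbr2, a carbonyl reductase of these macrophages, measured 0.979, 0.141 and 0.696 CPM in the knockout and 1.02, 1.46 and 1.15 CPM in the wild type (log2 fold change -0.90, SE 0.56), without overlap. F13a1, a coagulation factor subunit, measured 1.24 ± 0.168 against 1.67 ± 0.325 CPM and Cd74, the invariant chain, 0.814 ± 0.521 against 0.463 ± 0.304 CPM (SD over 3 libraries). Of the 14 blood cell markers, 4 had 0 counts in all 6 libraries, Ly6g, Ccr2 and Nkg7 among them. Of the list 6 were tested, 1 with a negative and 5 with positive fold changes. Cd79a, a B cell marker, measured 0.897, 0.422 and 0.658 CPM in the knockout and 0.554, 0.513 and 1.19 CPM in the wild type. The summed level of the list, mostly haemoglobin genes, was 42.3 to 131 CPM in the knockout and 41.6 to 88.8 CPM in the wild type.

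Of 40 further microglia genes outside the members, 29 were tested, 18 with negative and 11 with positive fold changes and a median of -0.14. Of these 29, 2 were at an unadjusted p under 0.05, both lower, where 1.03% of all tested genes and 1.77% of those under 10 CPM were lower at that level. In 6 of the 29 each knockout library lay below each wild-type library, against 3.25% and 5.14% of the same sets of genes, and in 0 each lay above. Abi3, an adaptor of the actin-regulating WAVE complex, measured 0.653, 0.282 and 0.232 CPM in the knockout and 1.06, 1.50 and 0.842 CPM in the wild type (log2 fold change -1.56, SE 0.57, edgeR quasi-likelihood unadjusted p = 0.0246). Rgs10, a regulator of G protein signalling, measured 7.26, 4.79 and 5.49 CPM in the knockout and 7.28, 9.05 and 9.68 CPM in the wild type (log2 fold change -0.56, SE 0.24, edgeR quasi-likelihood unadjusted p = 0.0445), with library 14 just under library 13. Without knockout library 16 the edgeR quasi-likelihood unadjusted p was 0.0725 for Abi3 and 0.124 for Rgs10. Slc2a5, a fructose transporter, measured 0.323 ± 0.181 against 0.811 ± 0.129 CPM (SD over 3 libraries; log2 fold change -1.16, SE 0.54). After adjustment 0 of the 29 passed.

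Of 43 further complement genes 21 were tested, 13 with negative and 8 with positive fold changes from -1.26 to 0.32 and a median of -0.09. In 2 of the 21 each knockout library lay below each wild-type library (3.25% of all tested genes), in 0 above, and 0 had an unadjusted p under 0.05. C1ra, a protease that C1q activates, measured 1.06, 0.141 and 0.503 CPM in the knockout and 1.41, 1.82 and 1.07 CPM in the wild type (log2 fold change -1.26, SE 0.59), where library 14 and wild-type library 17 nearly touched. Serping1, the inhibitor of the C1 complex, measured 2.85, 0.986 and 4.14 CPM in the knockout and 4.73, 3.63 and 4.55 CPM in the wild type (log2 fold change -0.63, SE 0.44). Cd55, which speeds the decay of complement convertases, measured 0.635 ± 0.191 against 1.15 ± 0.442 CPM, and Clu, the complement inhibitor clusterin, 2425 ± 640 against 2617 ± 736 CPM (SD over 3 libraries).

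The ligands and partners of the member receptors, 16 of 20 tested, split into 7 negative and 9 positive fold changes with a median of 0.03. The ligands of CSF1R had fold changes of opposite sign. Csf1 measured 9.46, 13.1 and 9.75 CPM in the knockout and 16.1, 15.5 and 11.5 CPM in the wild type (log2 fold change -0.43, SE 0.22). Il34 measured 11.9, 19.6 and 16.6 CPM in the knockout and 12.5, 11.3 and 13.01 CPM in the wild type (log2 fold change 0.38, SE 0.21). Both overlapped between genotypes, through knockout library 16 for Csf1 and library 14 for Il34. Tgfbr1, a receptor for TGF-beta, which maintains microglial identity, measured 7.11 ± 1.92 against 10.3 ± 1.91 CPM (SD over 3 libraries; log2 fold change -0.56, SE 0.26). Of 26 features for genes of activated microglia 12 were tested, 7 negative and 5 positive with a median of -0.07. Spp1, osteopontin, had the lowest p of these, with 9.11 CPM in wild-type library 17 and 0.845 to 2.69 CPM in the other 5 libraries, and its log2 fold change of -1.41 became 0.0027 without that library.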

How the data were processed

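Per the file headers, the authors deposited unscaled expected counts from RSEM per gene for 12 entries. The submitters' processing notes name STAR 2.5.3a, RSEM 1.3.0, edgeR and mm10, and no source used here gives the annotation release or strand setting. A comparison table deposited by the authors gives log2 fold changes, mean log2 CPM, p-values, adjusted p-values and a scaled signal per entry, of which the signal was not used.

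The 2 entries of a library differed by about sampling noise for most features (median chi-square per feature 0.467 to 0.494, mean 1.17 to 2.34, against medians of 2.93 to 18.8 between libraries of a group), so they were summed, rounded and counted as 1 sample. Genes were filtered with filterByExpr, scaled by TMM and tested in R 4.3.3 with the quasi-likelihood F test of edgeR 4.0.16 (limma 3.58.1 loaded). P-values were adjusted by the Benjamini-Hochberg method over 14990 genes at 0.05 and 8.24 total degrees of freedom. CPM per library used the TMM-scaled library sizes, and ± values are SD over 3 libraries. SEs came from the F statistic. Exact permutation tests used the 20 splits of 6 libraries. The script was tested on simulated data. DESeq2 1.42.0, edgeR's exact test and other alternatives are in the closing section.

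The members and lists were chosen with earlier results of these data known. All 29 members are named; from other lists, genes were taken from the 3 with the highest level and the 3 with the smallest p, except that blood cell markers at 0 and those defining a cell type are named as such. Some genes of these lists are not reported here. Coordinates and promoters were matched by symbol to RefSeq (GRCm38.p6). Levels were not corrected for gene length, so they compare libraries, not genes.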

Additional observations from a re-analysis of the deposited data

How the results depend on the processing

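Members past adjusted p 0.05 numbered 0 under all alternatives run, and the count of negative members (17 to 24, of 24 to 30 fitted) and their median stayed on the same side. Over all genes fitted, 47.4% to 52.2% were negative under these alternatives. The member median moved beyond the spread between libraries only with no filter on low counts (-0.30, against -0.0145 over all genes), where 4 more features enter. Calls over all genes were 8 with DESeq2, 9 with edgeR's exact test, 6 with no filter, 1 with the ribosomal RNA share as covariate, and 0 to 2 when 1 library was left out. Of 627 values of named genes under an alternative, 33 reversed, the cause of which was not tested. With the first number of the title string (5 or 6, not explained by the labels) as covariate Cx3cr1 was at 0.093 and Olfml3 at 0.15. With the ribosomal RNA share as covariate Aif1 was at -0.18, Olfml3 at 0.13 and Selplg at 0.55. With first entries only C1qa was at 0.15, Cd68 at -0.0067 and Selplg at 0.018. Without knockout libraries 14 and 16, which leaves 1 knockout library assumed to vary like the wild type, Aif1 was at -0.14, Cx3cr1 at 0.035, Fcer1g at -0.13, Laptm5 at 0.14, Olfml3 at 0.12 and Selplg at 0.57. Leaving out 1 library at a time gave ranges of -0.35 to 0.096 for Ctss, -0.25 to 0.36 for Cx3cr1, -0.12 to 0.54 for Itgam, -0.25 to 0.030 for Lgmn, -0.29 to 0.34 for Olfml3, -0.38 to 0.055 for Sall1, -0.56 to 0.23 for Selplg and -0.43 to 0.16 for Trem2. Outside the members the ranges were -0.53 to 0.036 for Mertk, -0.33 to 0.079 for Clu and -2.10 to 0.0027 for Spp1. Fmr1 passed with DESeq2 (adjusted p = 3.18e-16), the exact test and 3 other fits. No paired analysis was possible because the genotypes share no library numbers. Depth limits the members with a mean under 1 CPM, since 1 CPM stood for at most 26.1 counts in a library.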

Other observations

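Mertk, Sall1 and Lgmn, all known from microglia, were highest in wild-type library 13 and lowest in library 17 or 18. The median of the astrocyte marker list was so as well. The astrocyte marker median relative to the wild-type mean was 0.11, 0.24 and -0.22 log2 units in the knockout (14, 16, 18) and 0.26, 0.05 and -0.36 in the wild type (13, 15, 17). Mertk, a phagocytic receptor, measured 68.5, 88.7 and 37.9 CPM in the knockout and 94.9, 83.5 and 51.4 CPM in the wild type, low in libraries 17 and 18. These genes were picked after their values were seen, and the cells their reads came from were not tested.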
